A study of Mus musculus with 6 samples.

Results

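The genes described here are 10 enzymes that break purines down or salvage them: Ampd3, Ada, Pnp, Pnp2, Gda, Xdh, Uox, Adk, Aprt and Hprt. They were taken by name from the annotation of the array, as every probe set whose gene symbols include one of them, which gave 10 of the 35556 probe sets. Ampd3, Ada, Gda, Xdh, Uox, Adk, Aprt and Hprt have 1 probe set each, Pnp has 1 of its own, and 1 more is listed with both Pnp2 and Pnp. The signals of these paralogs cannot be told apart on that shared probe set.

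RNA came from hearts of untreated male mice aged 3 months. In VAChT KD mice, homozygous for a knockdown of the vesicular acetylcholine transporter, the transporter is reduced throughout the body and not in the heart alone, and age-matched wild-type (WT) mice served as the comparison. Each group has 3 Affymetrix Mouse Gene 1.0 ST arrays, each holding a pool of 2 RNA samples, so that p-values measure the spread between 3 pools and not between animals. The labels give the tissue as heart and the strain as C57BL/6, whereas the study's methods name ventricles and a mixed background with few backcrosses. The question asked of these genes is whether their transcripts differ between VAChT KD and WT hearts along the route from AMP to urate and back through salvage.

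Purine nucleotides leave the cell's energy pool as AMP, which is deaminated to IMP or stripped of its phosphate to adenosine. Adenosine is deaminated to inosine, purine nucleoside phosphorylase splits inosine and guanosine into ribose 1-phosphate and a free base, and xanthine dehydrogenase oxidises the bases to urate, a step that releases reactive oxygen species when the enzyme works as an oxidase. The salvage enzymes run the other way and put a phosphoribosyl group back on adenine, hypoxanthine or guanine, or a phosphate on adenosine, which in the heart holds down the level of this vasodilator.

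Promoter sequence was read for 8 of the 10 genes from RefSeq (build GRCm38.p6), as windows of 300 bases that run from 250 bases before a start to 50 bases after it. Pnp is shown because its signal varied most over the arrays among the 10 probe sets, Hprt because its signal was highest on the same 3 arrays as that of Pnp, and Uox because its probe set is the only one of the 10 whose groups did not overlap. Capitals mark a CCAAT box (CCAAT) or a GC box (GGGCGG), each searched on both strands, where the GC box of the minus strand reads CCGCCC.
Pnp, chr14:50944053-50944352, plus strand: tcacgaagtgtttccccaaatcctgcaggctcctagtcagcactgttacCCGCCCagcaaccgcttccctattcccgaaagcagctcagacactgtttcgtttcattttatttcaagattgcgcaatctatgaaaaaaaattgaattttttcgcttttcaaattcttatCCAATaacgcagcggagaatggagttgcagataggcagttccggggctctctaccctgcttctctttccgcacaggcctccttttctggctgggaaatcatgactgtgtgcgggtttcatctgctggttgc
Hprt, chrX:52987828-52988127, plus strand: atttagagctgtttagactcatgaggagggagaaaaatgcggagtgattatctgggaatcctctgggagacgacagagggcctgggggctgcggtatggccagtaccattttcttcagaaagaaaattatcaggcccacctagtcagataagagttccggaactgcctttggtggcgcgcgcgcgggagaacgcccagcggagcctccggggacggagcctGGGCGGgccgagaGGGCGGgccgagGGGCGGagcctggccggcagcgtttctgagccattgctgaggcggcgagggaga
Uox, chr3:146596899-146597198, plus strand: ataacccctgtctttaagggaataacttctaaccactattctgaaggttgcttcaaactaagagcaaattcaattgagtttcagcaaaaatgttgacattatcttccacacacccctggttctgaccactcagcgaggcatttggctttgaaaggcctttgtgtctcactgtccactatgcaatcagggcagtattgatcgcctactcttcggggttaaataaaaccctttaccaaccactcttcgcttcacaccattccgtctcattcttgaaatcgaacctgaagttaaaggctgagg
The Pnp window holds 1 CCAAT box whose first base lies 81 bases before the start, 1 GC box on the minus strand 201 bases before it, and 12 CpG dinucleotides. The Hprt window holds 3 GC boxes, 29, 16 and 4 bases before the start, and 22 CpG dinucleotides. In the Uox window neither motif occurs, and it holds 6 CpG dinucleotides. Of all 32851 promoter windows of that length, 37.4% hold a CCAAT box and 35.7% a GC box, and the median is 7 CpG dinucleotides. A TATA box (TATAAA, in 13.6% of all windows), an E-box (CACGTG, in 7.15%) and a cAMP response element (TGACGTCA, in 1.79%) were searched in the same way, and none of them occurs in these 3 windows. The motifs searched do not overlap one another in these windows, and a match describes letters only.

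The values are deposited log2 signals, so that a difference of 1 is a 2-fold change, and all differences are VAChT KD minus WT. As a guide to background, 95% of the 1035 probe sets of olfactory receptors, genes of the nose, lie at or below a log2 signal of 6.503. All 7 cardiomyocyte markers looked up were above it on average. The targeted gene Slc18a3, which encodes the transporter, read 7.24, 6.77 and 7.58 in VAChT KD hearts and 7.31, 7.42 and 7.11 in WT hearts, a difference of -0.08 ± 0.20 (SE), and so it does not check the labels in this tissue. Arrays correlated with one another at 0.982 to 0.994 over all probe sets. Array 1 of VAChT KD stands apart in the mean log2 signal of the cardiomyocyte markers. That mean was 13.24, against 14.03 and 14.02 on the other VAChT KD arrays and 13.94 to 13.97 on the WT arrays. The highest signal of any probe set was also lower on this array, 13.70 against 14.71 to 14.90 on the others. Tnnt2 read 13.59 on it and 14.58 and 14.57 on the other VAChT KD arrays, and Ryr2 12.37 against 12.61 and 12.59. Whether cell content or the top of the signal range lies behind this was not tested.

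The arrays numbered 2 stand apart as well. Ogdhl, a gene of the oxoglutarate dehydrogenase family, read 7.06, 10.17 and 7.09 in VAChT KD hearts and 9.60, 7.21 and 10.33 in WT hearts, so that array 2 of each group lies on the side of the other group. Its Pearson r with Pnp over the 6 arrays was -0.90. The groups follow the labels as deposited throughout, and each value and call below depends on them. Whether the labels of these arrays are right was not tested. With array 2 exchanged between the groups, Ogdhl would read 7.06, 7.21 and 7.09 in VAChT KD hearts and 9.60, 10.17 and 10.33 in WT hearts. The study itself reports Ogdhl lower, and Pnp and Pnp2 higher, in VAChT KD hearts. Values without both arrays numbered 2 are given beside the members and the pathway genes that are described singly, and they leave 2 arrays in each group. This choice was made with earlier results of these data known, Pnp among them. For Pnp and genes that vary with it, leaving out these arrays makes the difference larger by construction, and such values describe the remaining arrays and test nothing.

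None of the 10 probe sets differed between VAChT KD and WT hearts at an adjusted p of 0.05 (limma, Benjamini-Hochberg over all probe sets), where 0.00281% of all probe sets passed. Their adjusted p ran between 0.409 and 0.950. At an unadjusted p of 0.05, 1 of the 10 passed, Uox, against 11.7% of all probe sets, and with 1.3-fold added to that threshold 0 of the 10 passed, against 3.79%. The methods' test, an equal-variance comparison of the groups for each probe set, also called 0 of the 10 after adjustment, and 1 without it, against 8.67% of all probe sets. The groups did not overlap for 1 of the 10, again Uox, against 19.2% of all probe sets. Of the 10 differences, 7 were positive and 3 negative, where 45.8% of all probe sets were positive, with a median of 0.07 against -0.02 over all probe sets, and their median size was 0.09 against 0.11.

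**Figure D1:**
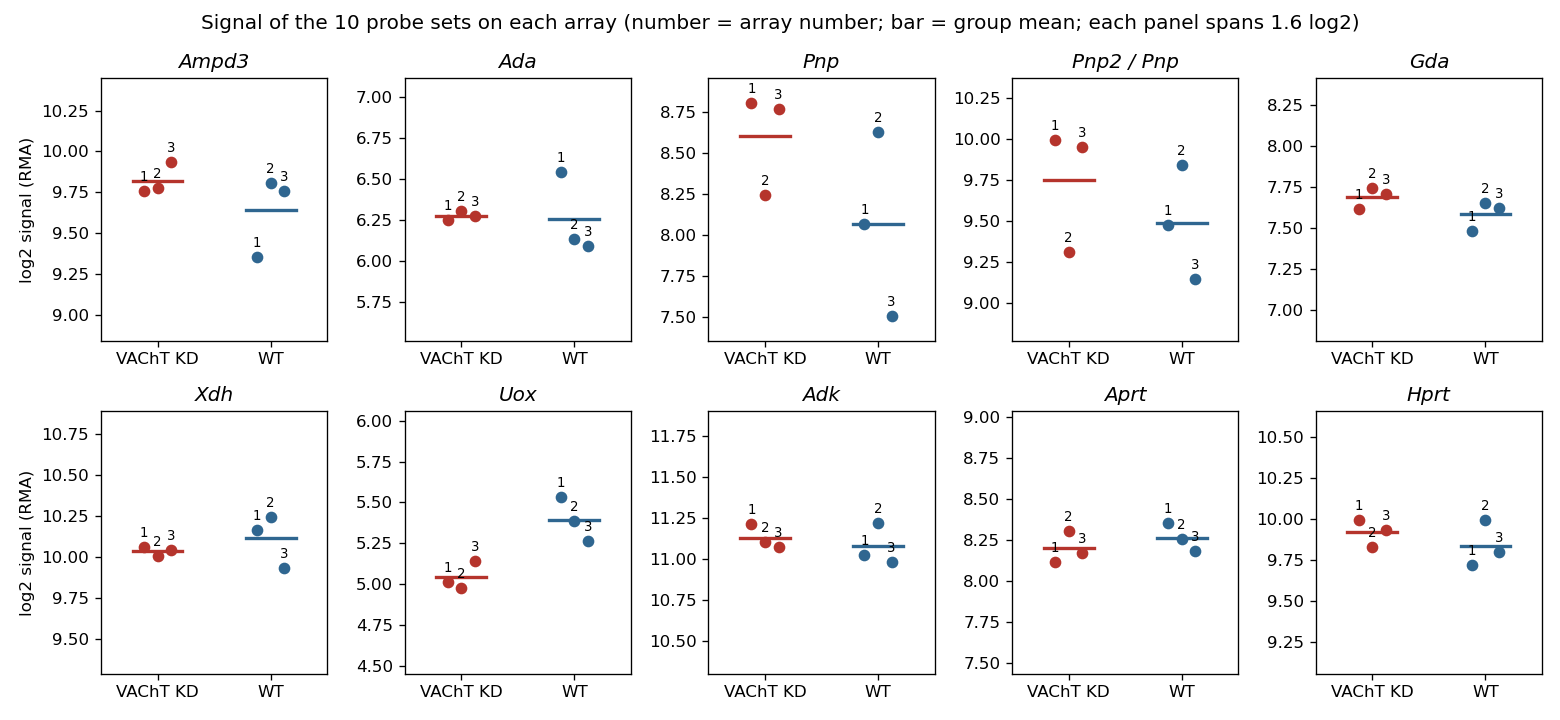
Log2 signal of the 10 probe sets, one panel each, with VAChT KD arrays left of WT arrays. Points carry the array number, bars are group means, and each panel has its own level but the same span of 1.6 log2 units. The widest scatter is that of Pnp, whose extremes are 8.81 (VAChT KD 1) and 7.51 (WT 3). Uox is the only probe set whose groups, as labelled, do not overlap.

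The route begins with Ampd3, the AMP deaminase known from red cells, which turns AMP into IMP. Its log2 signal was 9.76, 9.78 and 9.93 in VAChT KD hearts and 9.36, 9.80 and 9.76 in WT hearts. The groups overlap, and array 1 of WT is the low one. The difference was 0.18 ± 0.13 (SE, 95% confidence interval -0.13 to 0.49, adjusted p = 0.568), and without WT array 1 it was 0.04. Without both arrays numbered 2 it was 0.29 (95% confidence interval -0.13 to 0.71). Of 6 erythroid markers 2 were measured. The red cell gene Alas2 was also lowest on WT array 1, with 8.89, 9.83 and 10.03 in VAChT KD hearts and 8.65, 9.18 and 9.31 in WT hearts. The other erythroid marker measured, Slc4a1, was highest on that array, with 6.74, 7.33 and 7.35 in VAChT KD hearts and 7.59, 7.31 and 7.32 in WT hearts. The part of red cells in the Ampd3 result was not tested, and in whole tissue fewer cells of a type cannot be told apart from less RNA per cell.

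Ada, the adenosine deaminase that makes inosine and is known from lymphocytes, lay in the range of the olfactory receptors. It read 6.25, 6.30 and 6.27 in VAChT KD hearts and 6.54, 6.13 and 6.09 in WT hearts. The VAChT KD values are close together and fall between the highest and the lower WT arrays. The difference was 0.02 ± 0.13 (SE, 95% confidence interval -0.28 to 0.32, adjusted p = 0.950). Its sign depended on single WT arrays, with -0.06 without WT array 3, -0.04 without WT array 2 and 0.17 without WT array 1, and it was -0.05 without both arrays numbered 2. The T and B cell markers, of which 6 of 7 were measured and 3 lay above the olfactory range, averaged 6.10 to 6.37 on the VAChT KD arrays and 6.54, 6.25 and 6.26 on the WT arrays. Of the 6 measured, 2 were lower in VAChT KD hearts at an unadjusted p of 0.05 (limma), against 11.7% of all probe sets. They were Cd8a (-0.40) and Cd3e (-0.22), both above the olfactory range, and 0 were higher. The part of T and B cells in the high Ada value of WT array 1 was not tested.

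Pnp, purine nucleoside phosphorylase, showed the widest spread of the 10 probe sets. Its log2 signal was 8.81, 8.24 and 8.77 in VAChT KD hearts and 8.07, 8.63 and 7.51 in WT hearts. VAChT KD arrays 1 and 3 and WT array 2 are the 3 high ones, VAChT KD array 2 and WT arrays 1 and 3 the low ones. The groups as labelled overlap. With array 2 exchanged between them they would not, which follows from this pattern and tests nothing. Pnp averaged 8.61 ± 0.31 in VAChT KD hearts and 8.07 ± 0.56 in WT hearts (SD, n = 3 each). The difference was 0.54 ± 0.28 (SE, 95% confidence interval -0.12 to 1.20), a fold of 1.45 and an adjusted p of 0.473. It was larger than the SD of the VAChT KD arrays but smaller than that of the WT arrays, and its confidence interval includes 0.

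The probe set listed with both Pnp2 and Pnp was high on the same 3 arrays. Pnp2 encodes a second nucleoside phosphorylase of the mouse, and in RefSeq no protein-coding gene lies between it and Pnp on chromosome 14. This probe set read 9.99, 9.31 and 9.95 in VAChT KD hearts and 9.48, 9.85 and 9.15 in WT hearts. Again VAChT KD arrays 1 and 3 and WT array 2 are high, and the groups as labelled overlap. With array 2 exchanged between them they would not. The means were 9.75 ± 0.38 in VAChT KD hearts and 9.49 ± 0.35 in WT hearts (SD, n = 3 each). The difference was 0.26 ± 0.23 (SE, 95% confidence interval -0.28 to 0.80), a fold of 1.20, with an adjusted p of 0.629. Over the 6 arrays the 2 probe sets had a Pearson r of 0.94, given as a measure of likeness between probe sets that share a gene symbol.

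Both phosphorylase values depend on which arrays enter. Without both arrays numbered 2, which oppose the Pnp difference, that difference was 1.00, a fold of 2.00. For the probe set listed with both Pnp2 and Pnp it was then 0.66, a fold of 1.58. These are the 2 of the 10 that then stood past an unadjusted p of 0.05 and 1.3-fold, where 7.87% of all probe sets did, and neither reached an adjusted p of 0.05. The count is favoured by the choice of the arrays left out. Leaving out single arrays moved the Pnp difference between 0.26 without WT array 3 and 0.82 without WT array 2, and it was 0.72 without VAChT KD array 2. Its unadjusted p was below 0.05 when WT array 2 or VAChT KD array 2 was the one left out (adjusted p = 0.381 and 0.457), and with no other single array left out. For the shared probe set the range was 0.09 without WT array 3 to 0.48 without VAChT KD array 2. It was 0.14 without VAChT KD array 1, 0.16 without VAChT KD array 3 and 0.44 without WT array 2, and of these it passed an unadjusted p of 0.05 without VAChT KD array 2 alone (adjusted p = 0.457). With array weights the Pnp difference was 0.41 and that of the shared probe set 0.15.

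**Figure D2:**
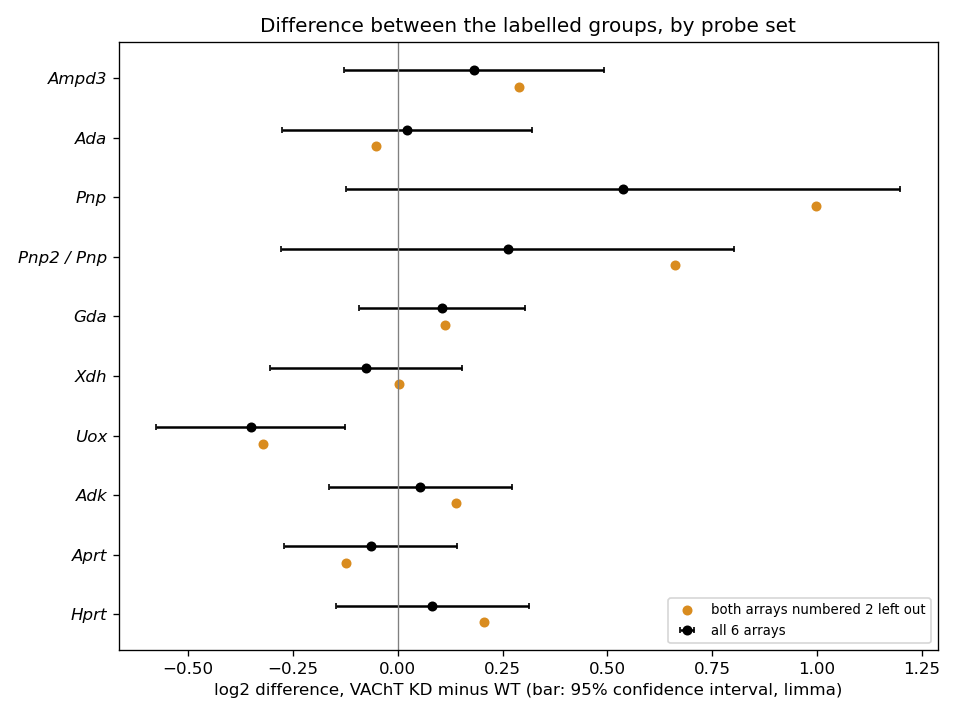
Log2 difference, VAChT KD minus WT, of the 10 probe sets, with all 6 arrays (black) and with both arrays numbered 2 left out (orange). Points are limma estimates, and bars, drawn for all 6 arrays, are 95% confidence intervals, of which that of Uox alone lies off 0 (-0.58 to -0.12). The orange points of Pnp (1.00) and of the probe set listed with both Pnp2 and Pnp (0.66) lie right of the black ones (0.54 and 0.26), which leaving out arrays that oppose the difference makes so.

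After the phosphorylase the route runs through free bases. Gda, the guanine deaminase that makes xanthine, read 7.62, 7.75 and 7.71 in VAChT KD hearts and 7.48, 7.65 and 7.62 in WT hearts. The groups overlap, and the difference was 0.11 ± 0.08 (SE, 95% confidence interval -0.09 to 0.30, adjusted p = 0.598), and also 0.11 without both arrays numbered 2.

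Xdh, the xanthine dehydrogenase that makes urate and is known from endothelium, read 10.06, 10.01 and 10.04 in VAChT KD hearts and 10.16, 10.24 and 9.93 in WT hearts. The VAChT KD values lie within a narrow band inside the WT range. The difference was -0.08 ± 0.10 (SE, 95% confidence interval -0.30 to 0.15, adjusted p = 0.748), and 0.00427 without both arrays numbered 2 (95% confidence interval -0.32 to 0.33). Leaving out WT array 3 made it -0.16 and leaving out WT array 2 made it -0.01. The 8 endothelial markers averaged 10.16 to 10.36 on the VAChT KD arrays and 10.16 to 10.41 on the WT arrays, and 0 of them passed an unadjusted p of 0.05.

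Uox, the urate oxidase that mice use in the liver to degrade urate, was the exception to the overlap. Its log2 signal was 5.01, 4.98 and 5.14 in VAChT KD hearts and 5.53, 5.39 and 5.27 in WT hearts. As labelled, all VAChT KD arrays are below all WT arrays, and all 6 values lie in the range of the olfactory receptors. With array 2 exchanged between the groups they would overlap, at 5.01, 5.39 and 5.14 against 5.53, 4.98 and 5.27. Uox averaged 5.05 ± 0.08 in VAChT KD hearts and 5.40 ± 0.13 in WT hearts (SD, n = 3 each). The difference was -0.35 ± 0.10 (SE, 95% confidence interval -0.58 to -0.12), a fold of 0.784 and an adjusted p of 0.409. It stayed between -0.41 and -0.28 with single arrays left out, past an unadjusted p of 0.05 each time, and was -0.32 without both arrays numbered 2 (95% confidence interval -0.67 to 0.03, adjusted p = 0.468), where it missed that threshold. It crossed 1.3-fold only without VAChT KD array 3 (-0.40) or without WT array 3 (-0.41).

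Dim probe sets as a class had a median difference below 0 as well, and the part of this shift in the Uox result was not tested. The olfactory receptor probe sets had a median difference of -0.11, the 15108 probe sets at or below their 95th percentile one of -0.07, and the 20448 above it one of 0.02. Among those 15108 dim probe sets, 15.5% had all VAChT KD values below all WT values, against 11% of the brighter ones. Of the hepatocyte markers, 2 of the 5 measured lay above the olfactory range, and Alb, the serum albumin gene, was below it, with 5.52, 5.71 and 5.26 in VAChT KD hearts and 5.69, 5.47 and 5.54 in WT hearts. Apoa1, an apolipoprotein gene of liver and gut, had 6.95, 6.96 and 6.66 in VAChT KD hearts and 7.39, 7.15 and 7.03 in WT hearts. Cyp2e1, a cytochrome P450 gene of liver and the other marker above the olfactory range, had 6.70, 7.09 and 8.05 in VAChT KD hearts and 6.96, 7.24 and 6.90 in WT hearts, a difference of 0.25. The median difference of the 5 markers was -0.07.

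The differences of the 3 salvage enzymes were within the spread between arrays. Adk, the adenosine kinase that returns adenosine to AMP, read 11.21, 11.11 and 11.07 in VAChT KD hearts and 11.03, 11.22 and 10.98 in WT hearts. The groups overlap, and the difference was 0.05 ± 0.09 (SE, 95% confidence interval -0.16 to 0.27, adjusted p = 0.813). Adk lies on chromosome 14, as Pnp does, and WT array 2 and VAChT KD array 1 were its highest. Its Pearson r with Pnp was 0.79 over the 6 arrays, and without both arrays numbered 2 its difference was 0.14.

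Aprt, the adenine phosphoribosyltransferase, had a log2 signal of 8.12, 8.30 and 8.17 in VAChT KD hearts and 8.35, 8.25 and 8.18 in WT hearts. The groups overlap, with a difference of -0.06 ± 0.09 (SE, 95% confidence interval -0.27 to 0.14, adjusted p = 0.759). With each array centred on its median, which moves the median difference of all probe sets by 0.07, its sign turned, to 0.00203, and without both arrays numbered 2 it was -0.12.

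Hprt, which salvages hypoxanthine and guanine, the bases that the phosphorylase releases, read 9.995, 9.832 and 9.935 in VAChT KD hearts and 9.721, 9.994 and 9.798 in WT hearts. VAChT KD arrays 1 and 3 and WT array 2 are the high ones, as for Pnp, but within a range of 0.27 against 1.3 for Pnp. The difference was 0.08 ± 0.10 (SE, 95% confidence interval -0.15 to 0.31, adjusted p = 0.722). Its Pearson r with Pnp was 0.80, and without both arrays numbered 2 its difference was 0.21.

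Leaving out the arrays numbered 2 gave 6 of the 10 probe sets without overlap, 4 higher and 2 lower in VAChT KD hearts, against 46.5% of all probe sets with 2 arrays in each group. The 4 higher ones were Pnp, the probe set listed with both Pnp2 and Pnp, Adk and Hprt, and the 2 lower ones Uox and Aprt. The median of the 10 differences was then 0.13, against -0.03 over all probe sets. No member reached an adjusted p of 0.05 there (limma). At an unadjusted p of 0.05 there were 2, both phosphorylase probe sets, against 10.6% of all probe sets.

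The pattern of Pnp over the arrays was compared with 2070 genes that have 1 symbol, a mean above the olfactory range and a range of at least 0.5 over the arrays. The 10 most like it by Pearson r over the 6 arrays were Nol7 (0.99), Ube2w (0.96), Klhl33 (0.96), Lsm8 (0.94), Lgals4 (0.93), Endod1 (0.92), Cspp1 (0.92), 1110059G10Rik (0.91), Rpp14 (0.91) and Brip1os (0.91). In all 10, which were chosen for this likeness, the 3 highest arrays were VAChT KD 1, VAChT KD 3 and WT 2. The array values fall into a high and a low set, so that r only ranks likeness and is no test. Klhl33 and Rpp14 lie on chromosome 14 with Pnp, 2 of the 10, against 3.96% of the 2069 ranked genes with a known chromosome. Nol7, the gene most like Pnp, read 8.76, 8.50 and 8.68 in VAChT KD hearts and 8.41, 8.67 and 8.19 in WT hearts, a narrower range than that of Pnp. Differences of the 10 were 0.14 to 0.34 with all arrays and 0.34 to 0.61 without both arrays numbered 2, a shift that their likeness to Pnp fixes.

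The neighbours of Pnp and Pnp2 on chromosome 14 fall into unlike patterns. Of the 5 nearest tested genes on each side, Klhl33 (0.96), Osgep (0.91) and Parp2 (0.74) had the highest r with Pnp, and all of them lie on the Pnp side. Klhl33, which encodes a kelch-like protein, had 8.18, 7.63 and 8.03 in VAChT KD hearts and 7.65, 7.91 and 7.39 in WT hearts. Osgep, which encodes a subunit of the complex that modifies tRNA, had 9.95, 9.73 and 10.09 in VAChT KD hearts and 9.68, 9.93 and 9.62 in WT hearts. Both are high on the 3 arrays where Pnp is high. On the same side Apex1, a DNA repair endonuclease, had an r of 0.38 and Pip4p1 one of -0.66. Beyond Pnp2, the ribonuclease genes Rnase10, Rnase9, Rnase11 and Rnase12 had an r between -0.79 and -0.37 and lay in the olfactory range, and Olfr750 had 0.13. Of these 10 neighbours, 6 lay above the olfactory range.

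**Figure D3:**
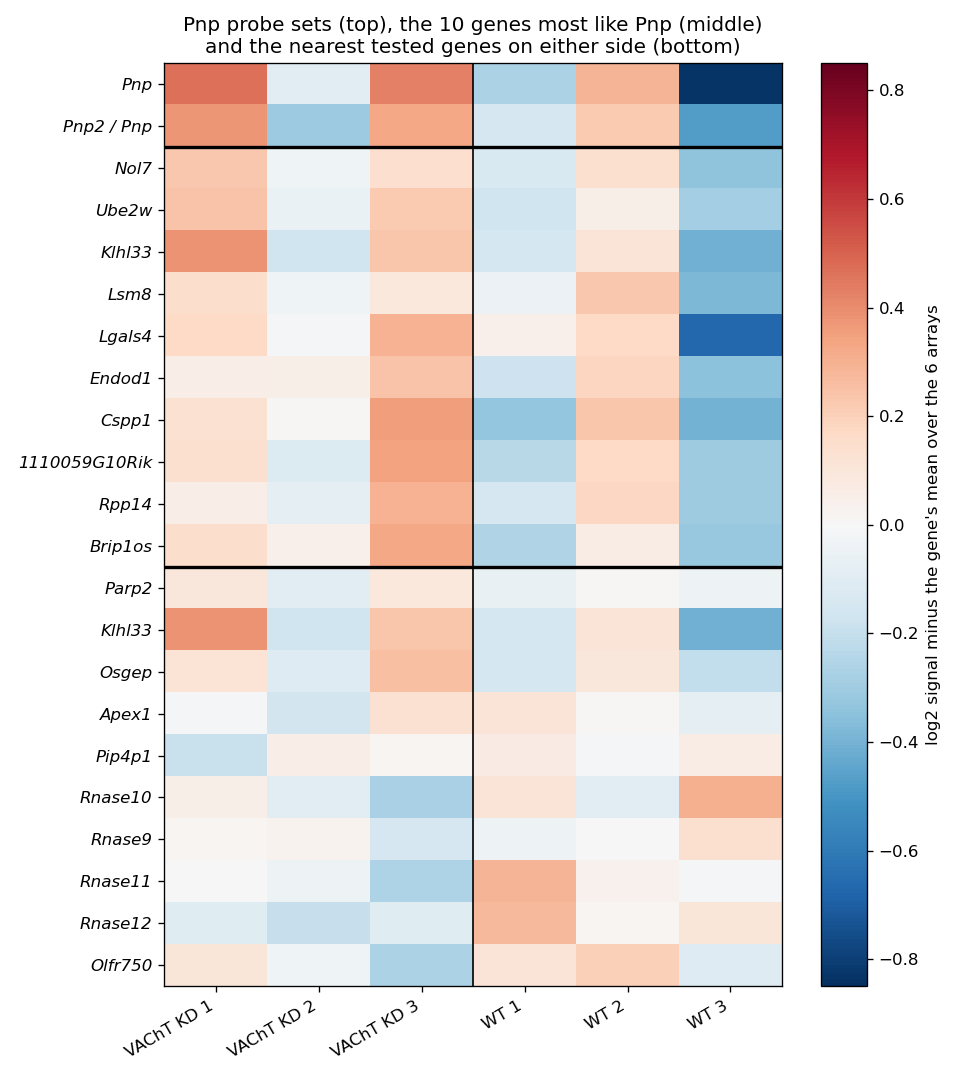
Log2 signal minus the gene's own mean over the 6 arrays (colour), for the Pnp probe sets, the 10 genes chosen as most like Pnp and 5 tested genes on either side of Pnp and Pnp2, with VAChT KD arrays left of WT arrays. Pnp, Klhl33 and Osgep are high on VAChT KD 1, VAChT KD 3 and WT 2, whereas Pip4p1 and the ribonuclease genes have a negative r with Pnp (-0.79 to -0.37).

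Other genes of purine metabolism were followed in 6 lists, in which 45 genes could be tested. At an adjusted p of 0.05 none passed (limma, lowest adjusted p 0.409). At an unadjusted p of 0.05, 1 was higher and 2 were lower in VAChT KD hearts, against 11.7% of all probe sets, and 0 of the 45 reached 1.3-fold with it. Of the 45 differences 24 were positive and 21 negative, with a median of 0.02, and for 5 genes the groups did not overlap, against 19.2% of all probe sets. Without both arrays numbered 2, 2 of the 45, Urad and Urah, reached an unadjusted p of 0.05 and 1.3-fold, against 7.87% of all probe sets.

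Among 9 nucleotidases and AMP deaminases, 1 passed an unadjusted p of 0.05. This was Nt5c3, a nucleotidase known to act mainly on pyrimidine monophosphates, with 9.02, 8.97 and 9.03 in VAChT KD hearts and 8.76, 8.91 and 8.68 in WT hearts. The groups do not overlap as labelled, but would with array 2 exchanged between them. The difference of Nt5c3 was 0.22 ± 0.09 (SE, adjusted p = 0.409, limma). Its unadjusted p was above 0.05 with quantile normalization (difference 0.16), with array weights (0.20), with the replicate number as a block (0.22), and also with any single array left out other than WT array 2, the smallest difference being 0.17 without WT array 3. Without both arrays numbered 2 the difference was 0.30, and its unadjusted p was below 0.05.

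The list for urate breakdown, molybdenum hydroxylases and their cofactor holds 11 tested genes, 2 of which were lower at an unadjusted p of 0.05. Urad, the decarboxylase that follows urate oxidase and the hydrolase Urah on the way to allantoin, had 7.07, 7.18 and 6.95 in VAChT KD hearts and 7.52, 7.40 and 7.28 in WT hearts, a difference of -0.33 ± 0.10 (SE, adjusted p = 0.409). Its groups do not overlap as labelled, but would with array 2 exchanged between them. Urad kept an unadjusted p below 0.05 (limma) with each single array left out, its difference then lying between -0.39 and -0.27. Allc, an allantoicase, had 5.84, 5.86 and 5.87 in VAChT KD hearts and 6.17, 6.10 and 5.98 in WT hearts, a difference of -0.23 ± 0.08 (SE, adjusted p = 0.409). It lies in the olfactory range and missed an unadjusted p of 0.05 with quantile normalization (difference -0.14), with median centring (-0.16), without any of VAChT KD arrays 1 and 2 and WT arrays 1 and 2, and without both arrays numbered 2 (-0.22). Urah, named here after its value was seen because it stands between Uox and Urad in the pathway, had 6.86, 6.80 and 6.44 in VAChT KD hearts and 7.21, 6.84 and 6.99 in WT hearts. Its groups overlap, with a difference of -0.32 ± 0.14 (SE, adjusted p = 0.436), which was -0.18 without VAChT KD array 3. Without both arrays numbered 2 the differences of Urad and Urah were -0.39 and -0.45. Aox1 of the same list, named for its value in that setting, went the other way. Its difference was 0.17 with all arrays and 0.35 without both arrays numbered 2, where its unadjusted p was below 0.05 (limma).

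The 4 other lists held no gene at an unadjusted p of 0.05, with all arrays or without both arrays numbered 2. In the branch from IMP to AMP and GMP (5 genes), the smallest p belonged to Adss (0.11 ± 0.08, SE) and Adsl (0.10 ± 0.08), which make AMP from IMP. In de novo IMP synthesis (7 genes) they belonged to Atic (0.14 ± 0.10), which closes the purine ring, and Paics (-0.11 ± 0.08), an earlier enzyme of that route. The groups of Paics did not overlap as labelled. In nucleoside salvage (6 genes) they belonged to Samhd1 (0.10 ± 0.11), which degrades deoxynucleotides, and Dguok (0.05 ± 0.08), the mitochondrial deoxyguanosine kinase. In nucleotide clean-up (7 genes) they belonged to Nudt1 (0.17 ± 0.11), which hydrolyses oxidised purine nucleotides, and Ak1 (-0.10 ± 0.08), the adenylate kinase of muscle. Adjusted p in these 4 lists was 0.549 or higher.

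**Figure D4:**
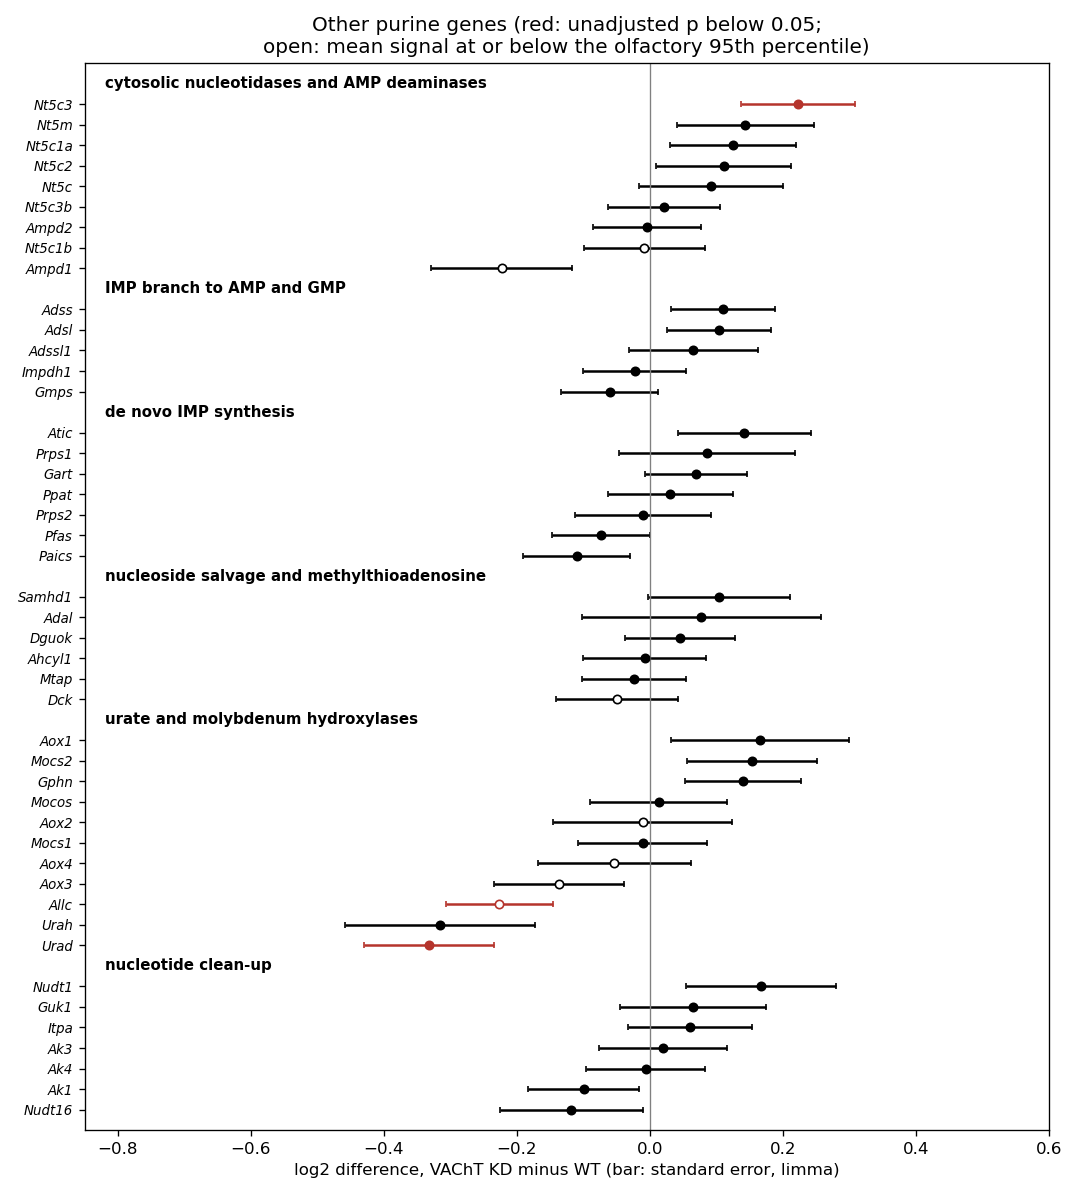
Log2 difference, VAChT KD minus WT, of 45 other purine genes in 6 lists, ordered within each list by the difference. Bars are standard errors, red points passed an unadjusted p of 0.05 and open points lie in the olfactory range. Nt5c3 (0.22) is the red point to the right of 0, and Urad (-0.33) and Allc (-0.23) are those to the left.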

How the data were processed

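Labelled cDNA from heart RNA was hybridised to 6 Affymetrix Mouse Gene 1.0 ST arrays, 3 VAChT KD and 3 WT, and each array's group is its labelled genotype. The authors summarised the probes by RMA in Partek, so that the deposited values are log2 signals, background-corrected and normalized across arrays, per probe set. The genome build behind them is not given in the sources used here. RMA signals are relative, hybridisation has no count, and the number of arrays limits the precision.

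Gene names came from GEO's annotation of the platform, where 21789 carry 1 symbol, 1621 several and 12146 are unlisted. All 35556 entered a linear model (limma 3.58.1, R 4.3.3; lmFit, then eBayes) of VAChT KD minus WT, with Benjamini-Hochberg adjustment, and the procedure was tested on simulated data. An exact permutation test of 3 against 3 arrays cannot go below a two-sided p of 0.1 and was not used. For pathway genes, the probe set with the highest mean stood for a gene. Of the lists, Impdh2, Gmpr and Gmpr2 were not matched by a symbol, and Prps1l3 and Ahcy share theirs with other genes; these were not tested. Named were all members, the pathway genes at an unadjusted p of 0.05 or else, for each list, the 2 lowest by p, and the 10 genes most like Pnp among probe sets with 1 symbol. The members and lists were chosen with earlier results of these data known. Alternatives were quantile normalization, median centring, a filter on dim probe sets, other eBayes settings, array weights, the methods' test, the replicate number as a block, single arrays left out and both arrays numbered 2 left out. Of the marker lists not given with the results, fibroblast markers averaged 9.65 to 9.85 on VAChT KD and 9.71 to 9.86 on WT arrays, macrophage markers 8.20 to 8.50 and 8.13 to 8.39, and adipocyte markers 6.34 to 6.48 and 6.50 to 6.84.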

Additional observations from a re-analysis of the deposited data

How the results depend on the processing

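At an adjusted p of 0.05 the count of members and of pathway genes was 0 under every alternative run. At an unadjusted p of 0.05 the count of members, 1 in the main test, was 0 with the filter on dim probe sets, which leaves Uox and Ada out (12.2% of those kept), ran between 1 and 3 with single arrays left out, where 6.07% to 13.1% of all probe sets passed, and was 2 without both arrays numbered 2 (10.6% of all). The 3 were without VAChT KD array 2 (10.9% of all). With 1.3-fold added, the count, 0 in the main test, ran between 0 and 2 with single arrays left out (2.37% to 6.11% of all) and was 2 without both arrays numbered 2 (7.87% of all). The count of pathway genes at an unadjusted p of 0.05 was 3 of 45 in the main test (11.7% of all probe sets). It was 1 with quantile normalization (10.3% of all) and ran between 1 and 4 with single arrays left out (6.07% to 13.1% of all). Without both arrays numbered 2 it was 4 (10.6% of all). The sign turned for Ada, between -0.0603 and 0.165 with single arrays left out and -0.0515 without both arrays numbered 2, for Xdh (0.00427 without both arrays numbered 2) and for Aprt (0.00203 with median centring). The cause was not tested. With only probe sets of 1 symbol, 1 of the 2 phosphorylase probe sets remains.

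The replicate numbers name the arrays and do not pair them by the labels. Deviations of same-numbered arrays from their group means correlated at 0.06, -0.12 and 0.13, and VAChT KD array 2 correlated best with WT array 1 (0.18). With the replicate number as a block, Pnp had an adjusted p of 0.493, 1 member passed an unadjusted p of 0.05 and 0 an adjusted one, and 4 pathway genes passed the unadjusted one. Over all probe sets 0 passed an adjusted p with the block and 4471 an unadjusted one, against 1 and 4174 without it.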
